A study of Mus musculus with 10 samples.

Results

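The genes described here encode 8 enzymes that make or convert asparagine, aspartate, alanine, proline, glutamine and glutamate: Asns, Gpt2, Got1, Got2, Pycr1, Aldh18a1, Glul and Glud1. They were chosen by gene symbol from a table of 33212 genes, and all 8 were among the 14156 genes with enough counts to test. Expression was measured by sequencing polyadenylated RNA of αTC1 cells, a cell line of mouse pancreatic α cells, the cells that secrete glucagon, established from a tumour. All cells were grown in DMEM with low glucose and serum, and were exposed for 48 h to the solvent DMSO or to 10 μM enzalutamide, a prostate cancer drug of the antiandrogen class. Each group held 5 libraries, which the labels call biological replicates without saying whether they were separate cultures, so p-values reflect only how much these libraries vary, which may be technical.

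Library totals were between 59557697 and 68603842 counts, and the 8 enzyme genes had between 1648 and 34290 counts in any library. All 8 α cell markers examined were present, with a summed level of 20587 to 21790 CPM in DMSO and 12731 to 14185 CPM in enzalutamide (CPM stands for counts scaled to a common library total). Most of that sum was Gcg, the glucagon gene, at 14646 to 15746 CPM in DMSO and 7844 to 8914 CPM in enzalutamide. Not all 8 markers were lower with the drug: the ranges of Pcsk2 and Irx2 overlapped between the groups, and Chga was at 1278 to 1345 CPM in DMSO and 1442 to 1615 CPM in enzalutamide. Of 6 β cell markers, Nkx6-1 was at 43.0 to 47.8 and 44.2 to 48.5 CPM, Mafa, Ins2 and Slc2a2 reached at most 2.06 CPM, and Ins1 and Pdx1 had 0 counts in every library. Of 5 acinar and duct markers, Sox9 (8.49 to 11.9 CPM) and Cela1 (4.72 to 8.09 CPM) were detected above 1 CPM, and the summed level of the 5 was 16.9 to 19.3 CPM in DMSO and 14.7 to 18.3 CPM in enzalutamide. The genes for somatostatin and pancreatic polypeptide and the leukocyte gene Ptprc had 0 counts in every library, and the macrophage gene Cd68 reached at most 1.39 CPM. A count of 0 allows a level of up to 0.0439 to 0.0497 CPM (3 counts, counting error only). Of 3 fibroblast markers, Pdgfra alone exceeded 2 CPM; the summed level of the 3 was 5.62 to 6.54 CPM in DMSO and 7.23 to 9.19 CPM in enzalutamide, and the part of other cell types in the results was not tested. In RNA from whole cultures, fewer cells that express a gene and less of its RNA per cell cannot be told apart.

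These enzymes link the citric acid cycle and glycolysis to the non-essential amino acids. Glutamate is the common nitrogen donor: aminotransferases pass its amino group to oxaloacetate or pyruvate and so make aspartate or alanine, and asparagine synthetase then takes an amide from glutamine to convert aspartate to asparagine. Proline is made from glutamate by way of pyrroline-5-carboxylate. Several of these genes are known targets of ATF4, the transcription factor that cells make when amino acids are short or protein synthesis is stressed. In α cells, amino acids also act as signals, with glutamine and alanine promoting glucagon secretion or α cell growth.

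RNA levels of 5 of the 8 enzymes were higher in enzalutamide-treated cells, 1 was lower and 2 did not pass the test. Gpt2, for mitochondrial alanine aminotransferase, rose 2.64-fold, Pycr1, for a reductase that completes proline synthesis, rose 2.13-fold, and Asns, for asparagine synthetase, rose 1.53-fold. Aldh18a1, which starts proline synthesis, rose 1.39-fold, and Got1, the cytosolic aspartate aminotransferase gene, rose 1.09-fold. Got2, for the mitochondrial aspartate aminotransferase, fell 1.17-fold. Glul and Glud1, for glutamine synthetase and glutamate dehydrogenase, were the 2 that did not pass. Of all genes tested, 37.8% passed, 19.0% of them as higher and 18.8% as lower, each as a share of the 14156. The median log2 fold change was 0.30 over the 8 enzymes and 0.01 over all genes tested. With libraries scaled by total counts alone, 60.7% of all passing genes were higher, against 50.3% in the analysis used here, and the 8 enzymes kept 5 higher and 1 lower.

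The start regions of all 8 genes were taken from RefSeq on GRCm38.p6, from 250 bases before to 50 after each start site, and searched on both strands for TGATGNAA. That sequence is the core of the C/EBP-ATF response element, to which ATF4 binds together with a C/EBP partner. It was found once each in Asns, Pycr1 and Got1 and not in the windows of the other 5 genes. Only exact matches were counted, and near matches were neither sought nor marked. Sequences are given 5′ to 3′ on the strand of the gene, with the match in capitals. Shown are the surroundings of the match in Asns (chr6:7693214-7693243, minus strand) and Pycr1 (chr11:120643833-120643862, minus strand), and the 130 bases before the start site of Got1 (chr19:43524606-43524735, minus strand) and of Gpt2 (chr8:85492446-85492575, plus strand), the member with the largest rise and no match.
Asns: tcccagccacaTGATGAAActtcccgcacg
Pycr1: tgccctgtgtaTGATGCAAtgcacaaggct
Got1: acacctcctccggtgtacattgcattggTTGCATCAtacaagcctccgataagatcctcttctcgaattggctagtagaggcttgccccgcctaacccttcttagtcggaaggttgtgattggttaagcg
Gpt2: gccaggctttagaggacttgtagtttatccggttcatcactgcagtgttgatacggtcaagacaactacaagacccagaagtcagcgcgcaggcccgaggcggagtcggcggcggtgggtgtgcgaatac

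The match in Asns lay at positions -23 to -16 from the RefSeq start site, that in Pycr1 at -103 to -96 and that in Got1 at -102 to -95. GENCODE places the start of Asns 45 bases farther upstream, so the Asns match falls inside its first exon there. For Pycr1 the offset is 21 bases and for Got1 it is 0. Among the genes without a match, Got2 starts 146 bases farther upstream in GENCODE, so its window covers fewer bases before that start. Read on its own strand, the Got1 match has the letters TGATGCAA, the same as in Pycr1, at almost the same distance from the start site but in the opposite orientation. The RNA of Pycr1 rose 2.13-fold and that of Got1 1.09-fold. Among all 32817 such windows in the table, 3.97% held a match. Counted by gene, a match was present in 2.73% of the 9891 tested genes that had a window, namely in 4.6% of those higher in enzalutamide, 1.93% of those lower and 2.37% of those that did not pass. Of the 28 other genes reported from the amino acid lists that had a window, 0 held a match. These are counts of letters and do not show binding.

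Asns, whose product makes asparagine, had the highest mean level per exon length of the 8. Asns (ENSMUSG00000029752; chromosome 6, 7675169 to 7693254 of GRCm38/mm10) was at 279.8, 285.7, 291.9, 281.4 and 288.1 CPM in DMSO libraries 1 to 5, and at 437.3, 465.3, 425.4, 430.0 and 422.2 CPM in enzalutamide libraries 1 to 5. The groups were far apart, with every enzalutamide library above every DMSO library and enzalutamide library 2 the highest. The log2 fold change was 0.61 (SE 0.0307, adjusted p = 1.02e-10 in edgeR's quasi-likelihood test).

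The 2 aspartate aminotransferases moved in opposite directions. They catalyse the same reversible reaction between glutamate and aspartate in different compartments, and both are parts of the malate-aspartate shuttle, which carries reducing equivalents into mitochondria. Got1 (ENSMUSG00000025190; chromosome 19, 43499752 to 43524605) was at 192.2, 200.8, 206.9, 206.4 and 207.0 CPM in DMSO and at 223.0, 227.6, 217.9, 220.4 and 217.9 CPM in enzalutamide. The groups did not overlap, but the gap between the highest DMSO and the lowest enzalutamide library was smaller than the range within DMSO, where library 1 was low. The log2 fold change of Got1 was 0.13 (SE 0.03, adjusted p = 0.00267). That is a small change: 8174 of the 14156 genes tested had a larger absolute log2 fold change, and the median over all was 0.16.

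Got2 (ENSMUSG00000031672; chromosome 8, 95864134 to 95888547) was at 471.4, 492.8, 492.6, 507.4 and 496.0 CPM in DMSO and at 410.5, 438.1, 414.6, 435.0 and 413.0 CPM in enzalutamide. All 5 enzalutamide libraries lay below all 5 DMSO libraries. Its log2 fold change was -0.22 (SE 0.0296, adjusted p = 1.47e-05), and 5203 of the genes tested had a larger absolute change. Of the 14156 genes tested, the groups did not overlap in 26.8%, with 13.1% higher and 13.7% lower in enzalutamide. Among the 8 enzymes the groups did not overlap for 5 that were higher and 1 that was lower.

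Gpt2, which makes alanine from pyruvate and glutamate in mitochondria, had the largest change of the 8. Gpt2 (ENSMUSG00000031700; chromosome 8, 85492576 to 85527560) was at 82.1, 81.0, 81.8, 76.9 and 75.2 CPM in DMSO. In enzalutamide it was at 207.0, 213.8, 210.1, 210.1 and 206.2 CPM. The 5 treated libraries differed from each other by less than 8 CPM and stood well above all controls. The log2 fold change was 1.40 (SE 0.0331, adjusted p = 6.09e-15), and 100 of the genes tested had a larger rise. Gpt, which encodes the cytosolic form of the enzyme, averaged 7.76 ± 0.6 CPM in the DMSO and 7.97 ± 1.19 CPM in the enzalutamide libraries (SD, n = 5 each). Its log2 fold change was 0.04 (95% interval -0.17 to 0.24, adjusted p = 0.812).

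Aldh18a1 and Pycr1, on the route from glutamate to proline, both rose, Pycr1 more than Aldh18a1. Aldh18a1 encodes pyrroline-5-carboxylate synthase, which reduces glutamate, and Pycr1 encodes a mitochondrial reductase that turns pyrroline-5-carboxylate into proline. Aldh18a1 (ENSMUSG00000025007; chromosome 19, 40550257 to 40588463) was at 203.8, 210.1, 208.9, 216.1 and 200.0 CPM in DMSO and at 291.9, 298.4, 284.2, 284.2 and 289.5 CPM in enzalutamide. Its log2 fold change was 0.48 (SE 0.0295, adjusted p = 1.34e-09), and no libraries of the 2 groups overlapped.

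Pycr1 (ENSMUSG00000025140; chromosome 11, 120635712 to 120643769) was at 27.0, 25.3, 26.2, 24.6 and 25.2 CPM in DMSO and at 54.5, 59.3, 52.3, 54.9 and 52.5 CPM in enzalutamide. The treated libraries were all above all controls, library 2 again being the highest. The log2 fold change of Pycr1 was 1.09 (SE 0.0471, adjusted p = 1.21e-11). Pycrl, now also called Pycr3, encodes the cytosolic reductase of the same step and was at 54.9 ± 2.52 and 51.1 ± 2.66 CPM (log2 fold change -0.11, adjusted p = 0.0856, and 0.0404 without DMSO library 2 or 0.0481 without enzalutamide library 3).

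The enzymes that form glutamine and that release or capture ammonia at glutamate changed least. Glul (ENSMUSG00000026473; chromosome 1, 153899944 to 153909723), for the enzyme that joins ammonia to glutamate, was at 236.8, 261.5, 265.4, 247.7 and 260.3 CPM in DMSO and at 236.2, 244.3, 244.8, 248.7 and 243.2 CPM in enzalutamide. The groups overlapped, with DMSO library 1 within 1 CPM of the lowest treated library. The log2 fold change was -0.06 (95% interval -0.13 to 0.0023, adjusted p = 0.155). Without DMSO library 1 it was -0.09 and passed the test (adjusted p = 0.0315), so that 7 of the 8 enzymes were then called, 2 of them lower. Over all 19 alternatives its adjusted p was between 0.0315 and 0.546.

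Glud1 (ENSMUSG00000021794; chromosome 14, 34310727 to 34345265), for the mitochondrial enzyme that interconverts glutamate and α-ketoglutarate, was the most variable of the 8 between libraries. It was at 102.8, 90.3, 98.5, 112.8 and 96.2 CPM in DMSO and at 90.5, 102.5, 104.8, 90.5 and 89.6 CPM in enzalutamide, with values of the 2 groups interleaved. Its coefficient of variation was 8.41% in DMSO and 7.78% in enzalutamide, against 1.43% to 5.16% for the other 7 genes. The log2 fold change was -0.07 (95% interval -0.18 to 0.05, adjusted p = 0.402). A change of the size seen for Got2 is outside that interval.

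**Figure D1:**
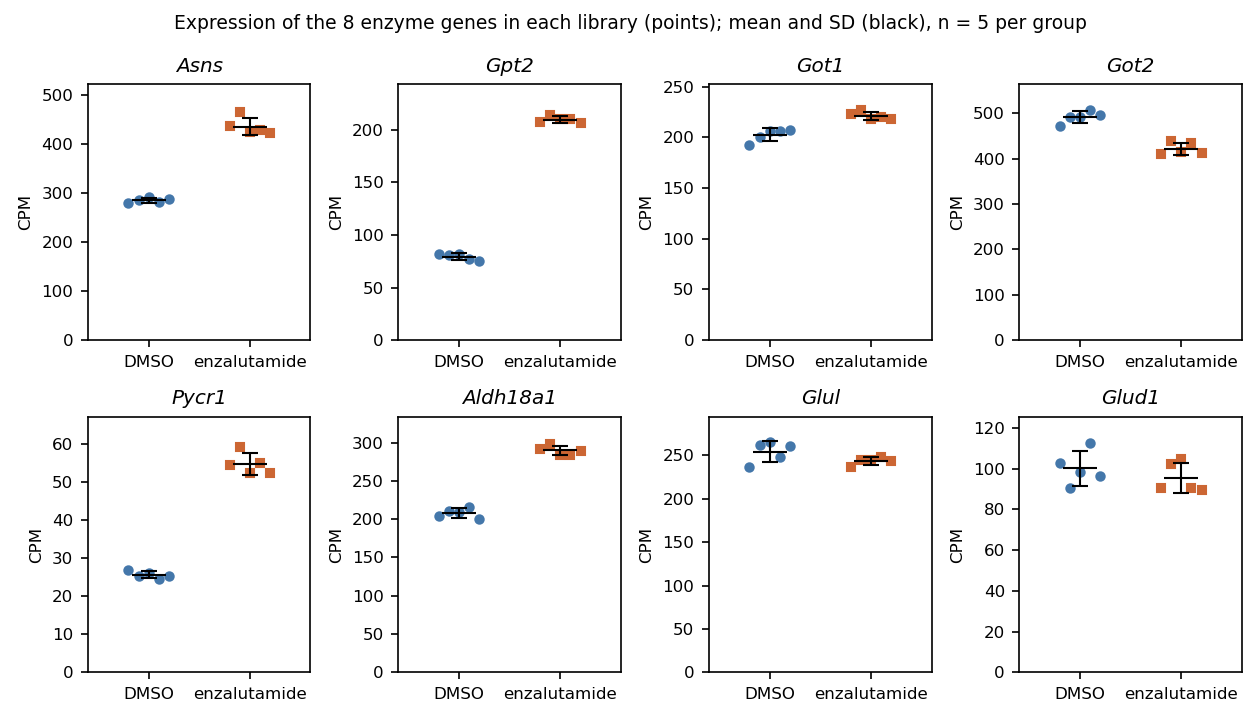
Level in CPM (y axis, from 0) of each of the 8 enzyme genes in every DMSO library (circles) and enzalutamide library (squares), with the mean and SD of 5 libraries in black. The groups do not overlap for Asns, Gpt2, Got1, Pycr1 and Aldh18a1, which are higher in enzalutamide, or for Got2, which is lower, and they overlap for Glul and Glud1.

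Enzalutamide library 2 had the highest level of its group for 6 of the 8 genes, namely Asns, Gpt2, Got1, Got2, Pycr1 and Aldh18a1. Without that library the log2 fold changes were 0.59 for Asns, 1.39 for Gpt2, 0.12 for Got1, 1.06 for Pycr1, 0.47 for Aldh18a1 and -0.23 for Got2. All 6 still passed. DMSO library 1 had the lowest level of its group for 4 genes, Asns, Got1, Got2 and Glul.

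Levels of different genes were compared after division by exon length (CPM per kilobase of merged GENCODE exons). In DMSO, Asns (104 ± 1.8) and Got2 (102 ± 2.7) were the highest and overlapped, followed by Got1 (79.8 ± 2.53) and Glul (76.5 ± 3.57), which also overlapped. Aldh18a1 (51.0 ± 1.51), Glud1 (23.8 ± 2), Gpt2 (14.1 ± 0.561) and Pycr1 (6.52 ± 0.242) followed, each clear of the next. In enzalutamide Asns stood alone at 159 ± 6.33 CPM per kilobase. Got2 (87.5 ± 2.74) and Got1 (87.2 ± 1.6) overlapped there, as did Glul (73.3 ± 1.36) and Aldh18a1 (71.1 ± 1.45). Gpt2 (37.1 ± 0.532) was above Glud1 (22.7 ± 1.77), the reverse of their order in DMSO, and Pycr1 remained the lowest at 13.9 ± 0.718. Merged exons count the bases of every annotated transcript, so a gene whose cells use a short transcript appears lower on this scale.

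**Figure D2:**
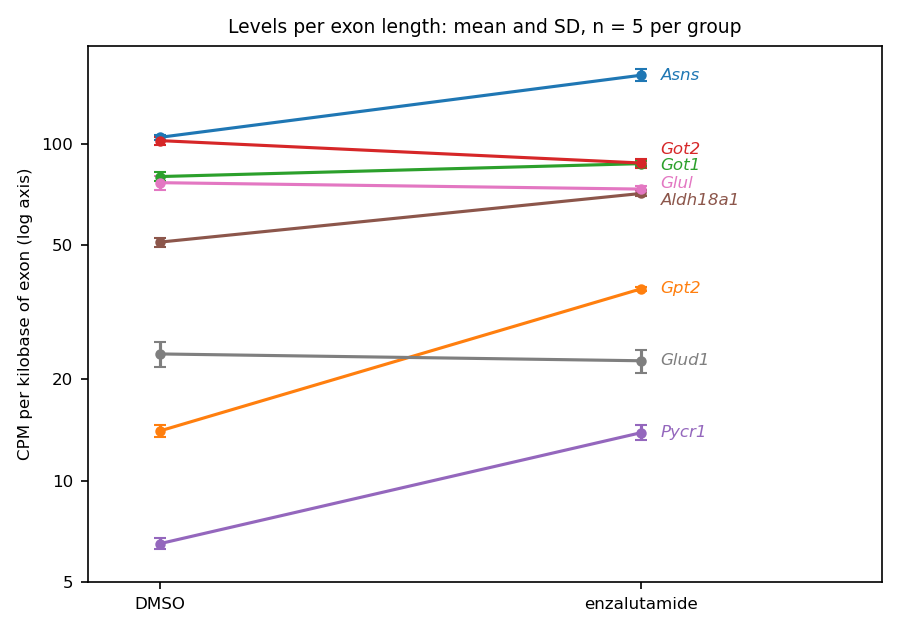
Level per kilobase of exon (log axis) of the 8 enzyme genes in DMSO and enzalutamide, with lines joining the group means and bars for the SD of 5 libraries. Gpt2 crosses Glud1, Got2 and Got1 meet near 87 CPM per kilobase, and Aldh18a1 reaches the level of Glul.

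Ratios between genes within the same library do not depend on how libraries are scaled, and 4 of them are given here. The ratio of Got1 to Got2 CPM was 0.412 ± 0.00627 in DMSO and 0.524 ± 0.0133 in enzalutamide, 1.27-fold higher. Pycr1 to Aldh18a1 rose from 0.124 ± 0.00702 to 0.189 ± 0.0071 (1.53-fold). The RNA of Pycr1 thus rose more than that of Aldh18a1 in the same libraries; the other reductase gene reported, Pycrl, does not enter this ratio.

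Gpt2 to Got2, the mitochondrial alanine and aspartate aminotransferases, rose from 0.162 ± 0.00986 to 0.496 ± 0.0103 (3.08-fold). For these 3 ratios the groups did not overlap, and the exact two-sided permutation test gave its smallest possible p of 0.00794 (0.00952 after Benjamini-Hochberg adjustment over the 6 ratios computed). For all 3 ratios this outcome was fixed in advance by the levels of the single genes, to which the test adds nothing. Got1 and Gpt2 rose and Got2 fell without overlap. In enzalutamide, Pycr1 was at 52.3 CPM or more and Aldh18a1 at 298.4 CPM or less. In DMSO, Pycr1 was at 27.0 CPM or less and Aldh18a1 at 200.0 CPM or more. However these levels are combined within a group, the Pycr1 to Aldh18a1 ratio is higher in enzalutamide. Glul to Glud1 was 2.56 ± 0.296 and 2.56 ± 0.189, with overlapping groups (n = 5 each, exact permutation p = 0.96, adjusted p = 0.96).

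**Figure D3:**
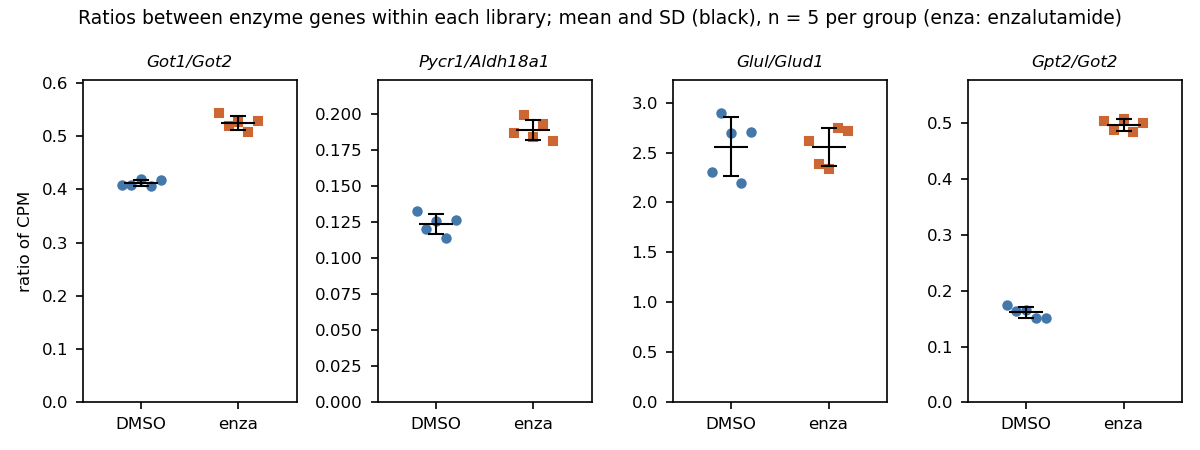
Ratio of CPM between pairs of enzyme genes (y axis, from 0) in each DMSO (circles) and enzalutamide (squares) library, with the mean and SD of 5 libraries in black. For Got1/Got2, Pycr1/Aldh18a1 and Gpt2/Got2 all enzalutamide libraries lie above all DMSO libraries, and for Glul/Glud1 they overlap.

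The genes around these enzymes were read from 6 lists, of which 37 tested genes besides the 8 are reported here. Of these, 10 rose, 11 fell and 16 did not pass (56.8% called, against 37.8% of all genes tested), with a median log2 fold change of -0.08. In the list for asparagine and aspartate, 3 of 6 tested genes other than the 8 enzymes rose and 0 fell. Of all genes tested, 19.0% were higher and 18.8% lower. Folh1, for a peptidase that frees glutamate from N-acetylaspartylglutamate and folates, rose from 8.06 ± 0.69 to 12.7 ± 1.27 CPM (log2 fold change 0.66, adjusted p = 9.78e-06). Ass1, for argininosuccinate synthase, which consumes aspartate, rose from 49.8 ± 2.04 to 60.9 ± 2.66 CPM (log2 fold change 0.29, adjusted p = 3.9e-05). The asparaginase gene Aspg was the third (log2 fold change 0.36, adjusted p = 0.0296), but it did not pass without DMSO library 2 (adjusted p = 0.0544), 3 (0.0753) or 5 (0.0789), without enzalutamide library 5 (0.0735) or without a filter on low counts (0.0589). A second asparaginase gene, Asrgl1, did not pass (log2 fold change 0.09, adjusted p = 0.192).

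Among alanine and other aminotransferases, 4 of 7 further genes rose and 0 fell. Bcat1, the cytosolic branched-chain aminotransferase gene, rose from 105 ± 5.02 to 145 ± 5.6 CPM (log2 fold change 0.47, adjusted p = 5.68e-08). Psat1, for the aminotransferase of serine synthesis, rose from 297 ± 7.66 to 382 ± 13.4 CPM (log2 fold change 0.36, adjusted p = 8.87e-08). The other risers were the mitochondrial form Bcat2 (log2 fold change 0.23, adjusted p = 0.0149) and Abat, the GABA transaminase gene (0.11, adjusted p = 0.0386). Abat lost the call when DMSO library 1, 3 or 4 or enzalutamide library 3, 4 or 5 was left out (adjusted p = 0.0566 to 0.113). With Gpt2, 5 of the 8 tested aminotransferases of this list were therefore higher, against 19.0% of all genes tested. Got1 and Got2 are aminotransferase genes too but were placed in other lists, and Got2 fell. The count of 0 that fell thus depends on how the lists were drawn.

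In the list for proline and ornithine, Aldh18a1 and Pycr1 were the members that rose. Of the 7 further genes reported, 2 fell and 0 rose, where 18.8% of all genes tested were lower and 19.0% higher. The 2 that fell were P4ha1 and P4ha2, for subunits of collagen prolyl hydroxylases. P4ha1 was at 46.2 ± 7.33 and 38.3 ± 3.45 CPM (log2 fold change -0.27, adjusted p = 0.0221), and the call was lost when DMSO library 1 or 2 or enzalutamide library 1, 3 or 4 was left out (adjusted p = 0.0517 to 0.063) or without a filter on low counts (0.0723). P4ha2 was at 32.8 ± 4.56 and 27.8 ± 1.56 CPM (log2 fold change -0.24, adjusted p = 0.0218). The call for P4ha2 was lost without DMSO library 1 (adjusted p = 0.0634) or 2 (0.0627), without enzalutamide library 3 (0.0598) or 4 (0.0536), and without a filter on low counts (0.0629). The genes for proline breakdown did not pass: Prodh, the proline dehydrogenase gene, was at 1.29 ± 0.184 and 1.08 ± 0.237 CPM (adjusted p = 0.42), and Aldh4a1, for the enzyme that returns pyrroline-5-carboxylate to glutamate, at 21.3 ± 1.5 and 20.5 ± 1.33 CPM (adjusted p = 0.498). Oat, the ornithine aminotransferase gene, had too few counts to test, with means of 0 CPM in DMSO and 0.009 CPM in enzalutamide.

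In the list for glutamine and glutamate 0 of the 4 further genes reported passed in edgeR or in DESeq2, and 0 had an unadjusted p under 0.05. Of all genes tested in edgeR, 37.8% passed. Gls2, for the liver-type glutaminase, was at 35.8 ± 1.75 and 36.4 ± 1.54 CPM (log2 fold change 0.02, 95% interval -0.07 to 0.12, adjusted p = 0.753).

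Glutamine amidotransferases use the amide of glutamine as Asns does. Of 9 further genes in this list, 3 rose and 5 fell, where 19.0% of all genes tested were higher and 18.8% lower. Cad, for the protein that starts pyrimidine synthesis, fell from 585 ± 20.3 to 441 ± 11 CPM (log2 fold change -0.41, adjusted p = 1.32e-08), and Ppat, for the first enzyme of purine synthesis, from 172 ± 2.86 to 142 ± 5.28 CPM (log2 fold change -0.27, adjusted p = 3e-06). Ctps2, a CTP synthase gene, rose by 0.32 on the log2 scale (adjusted p = 3.31e-05), as did Nadsyn1, for NAD synthetase (0.32, adjusted p = 0.00327), and Pfas of purine synthesis (0.22, adjusted p = 0.00662). The other genes that fell were Gfpt1, for the first enzyme of hexosamine synthesis (-0.21), the GMP synthetase gene Gmps (-0.17) and the second CTP synthase gene Ctps (-0.15).

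The malate-aspartate shuttle had 5 of 7 genes lower, Got2 among them, and Got1 as the single member that rose. Without Got1 and Got2, 4 of 5 were lower. Of all genes tested, 18.8% were lower and 19.0% higher. Mdh1 and Mdh2, the cytosolic and mitochondrial malate dehydrogenase genes, fell with log2 fold changes of -0.28 (adjusted p = 2.7e-05) and -0.27 (adjusted p = 6.59e-06). Besides Got2, the others were the oxoglutarate carrier gene Slc25a11 (-0.29, adjusted p = 2.72e-05) and the aspartate-glutamate carrier gene Slc25a13 (-0.24, adjusted p = 0.00073). The related carrier gene Slc25a12 did not pass (log2 fold change -0.04, adjusted p = 0.331).

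**Figure D4:**
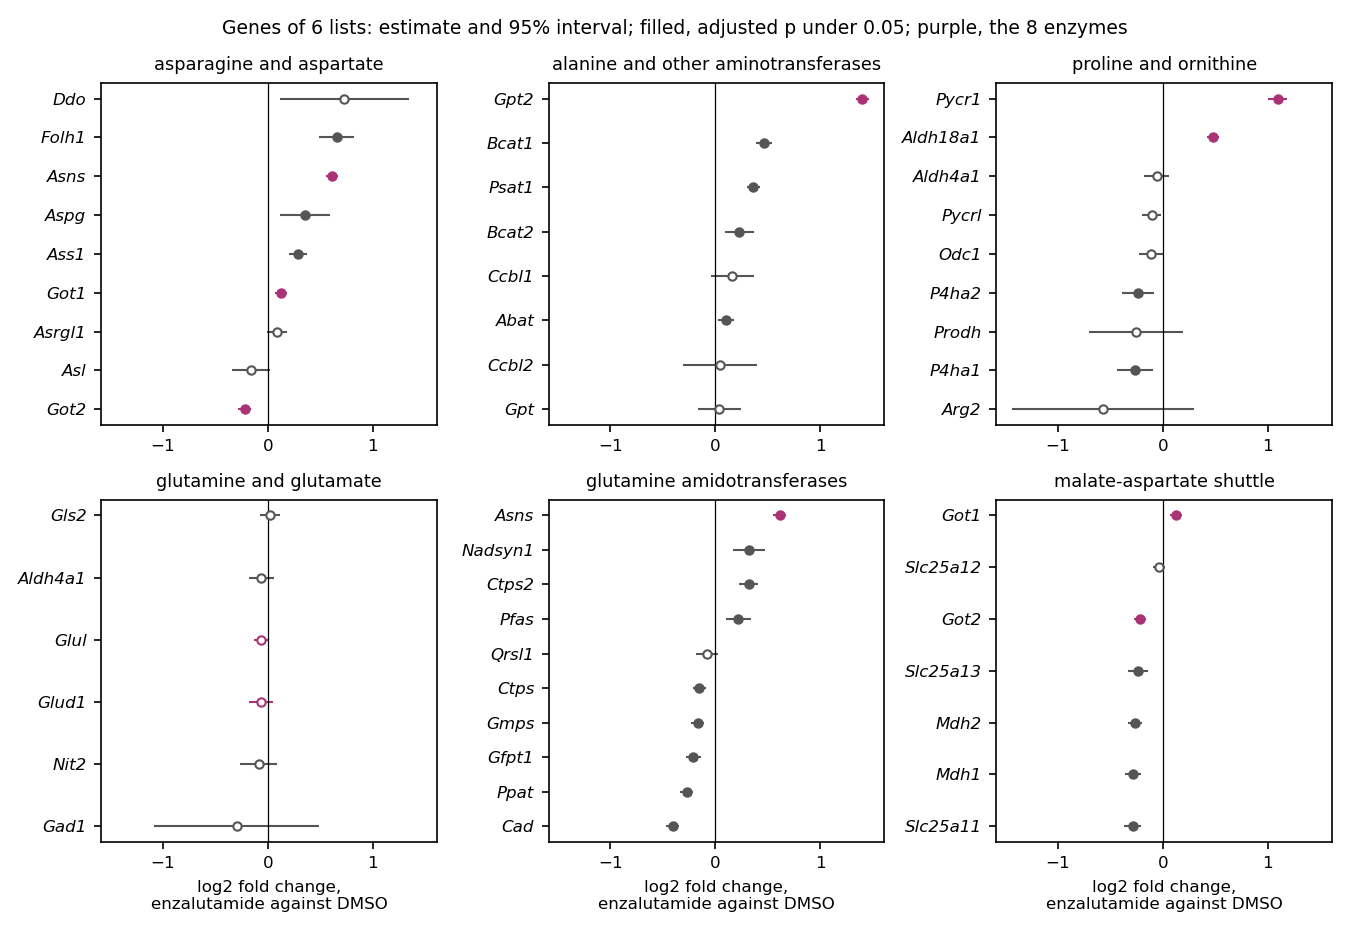
Log2 fold change of enzalutamide against DMSO (x axis) with 95% interval for the tested genes of 6 lists; filled points have an adjusted p under 0.05 and purple marks the 8 enzymes. Gpt2, Pycr1 and Aldh18a1 lie to the right of the genes listed with them, and Got1 lies to the right of the other shuttle genes.

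For Asns, Gpt2, Pycr1 and Glul, the genes with the most similar profile over the 10 libraries were found among 10181 tested genes with a mean of at least 5 CPM. The measure was the root mean square difference of log2 CPM after subtraction of each gene's DMSO mean. For Asns, Gpt2 and Pycr1 it mainly finds genes with a similar fold change. It does not show that genes vary together between libraries of a group. Asns was nearest to Slc3a2, the heavy chain of several amino acid transporters (difference 0.0363; log2 fold change 0.64), and to Kcnip3, for a calcium-binding protein (0.0377; log2 fold change 0.59). Gpt2 was nearest to Pck2, the mitochondrial phosphoenolpyruvate carboxykinase gene (0.0623; log2 fold change 1.37), and to the p53-inducible Trp53inp1 (0.0826; log2 fold change 1.41). Pycr1 was nearest to Arhgef2, for a guanine nucleotide exchange factor (0.0412; log2 fold change 1.09), and Cyb5r1, for a cytochrome b5 reductase (0.0616; log2 fold change 1.16). Glul was nearest to Iars2, the mitochondrial isoleucyl-tRNA synthetase gene (0.025), and Sin3a, for a corepressor (0.0326), neither of which passed (adjusted p = 0.163 and 0.315).

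The annotation shows other genes overlapping 3 of the 8. Glul overlaps Teddm2 on the opposite strand, which reached at most 0.165 CPM, and the microRNA gene Mir8114, at most 0.463 CPM. Got2 overlaps Gm45760 and has the processed pseudogene Got2-ps1, and a processed pseudogene, Gm15801, lies within Aldh18a1; these 3 were not analysed here. How reads shared with such copies were counted is not given in the sources used here.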

How the data were processed

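Polyadenylated RNA of 5 DMSO and 5 enzalutamide libraries was analysed, grouped by title. HISAT2, StringTie, DESeq2 and build mm10 appear in the submitters' processing notes, with neither version nor role. The authors deposited whole-number counts per gene. They also deposited a signal, these counts scaled by library; multiplied by DESeq2's median-of-ratios size factors it gave the counts to within 0.000416 for 20039 symbols. The columns left unused numbered 0.

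In R 4.3.3, genes were filtered by filterByExpr, scaled by trimmed mean of M values and tested without covariates by edgeR 4.0.16 (quasi-likelihood F), p-values being adjusted by Benjamini-Hochberg over 14156 genes and a threshold of 0.05. The SE of a log2 fold change was its size over the root of F, and 95% intervals are normal. Replicates of a group differed by more than sampling noise in every pair (chi-square 9.2 to 37.6 per degree of freedom), and the common biological variation was 8.39%. On simulated data for this comparison (14156 genes), 16 of 50 genes changed 1.2-fold, 43 of 50 at 1.5-fold and 50 of 50 at 3-fold were recovered, with 7 false calls among 165. Only 50 genes were changed at each size, while 5358 passed in the data, and every simulated gene was given the same variation. The shares recovered may therefore differ in the data.

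The enzymes, lists and motif were chosen with earlier results of these data known. Named genes were the 8 enzymes, up to 2 passing genes per list and direction with the lowest adjusted p, ratio partners and 2 nearest profiles for Asns, Gpt2, Pycr1 and Glul. Aspg, Asrgl1, Gpt, Bcat2, Abat, Pycrl, Prodh, Aldh4a1, Oat, Gls2, Pfas, Gfpt1, Gmps, Ctps, Slc25a11, Slc25a12 and Slc25a13 were named after their values were seen. Results for some genes and ratios under these rules are not reported here, and the list counts leave those genes out. Alternatives were relative log expression and total-count scaling, no filter, a mean CPM of at least 1, a replicate block, leaving out each library, DESeq2 1.42.0, limma 3.58.1 with voom, and limma-trend on log2 of the deposited signal plus 1 or 8. Positions and lengths came from GENCODE M21 (GRCm38); start regions came from RefSeq (GRCm38.p6), where all 8 enzymes were matched by symbol.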

Additional observations from a re-analysis of the deposited data

Results flagged for a closer look

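In 96 groups of 5 values (44 named genes and 4 ratios in each treatment), 2 had an end value set far apart from the other 4 by Dixon's criterion, which flags about 1 in 20 groups by chance. Slc25a11 was at 67.4 CPM in enzalutamide library 5 and at 72.1 to 73.7 CPM in the other 4. Iars2, the nearest profile to Glul, was at 180.3 CPM in DMSO library 1 and at 193 to 195.6 CPM in the other 4; without that library its log2 fold change was -0.08 and passed (adjusted p = 0.0435).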

How the results depend on the processing

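Across the 19 alternatives the 5 enzymes that rose and Got2, which fell, kept their direction and their call, with log2 fold changes of 0.59 to 0.65 for Asns, 1.38 to 1.43 for Gpt2, 0.11 to 0.16 for Got1, 1.06 to 1.13 for Pycr1, 0.47 to 0.51 for Aldh18a1 and -0.24 to -0.19 for Got2. Leaving out each library gave 6 to 7 enzymes called, 5 higher in each case and 1 to 2 lower, the second being Glul without DMSO library 1 (log2 fold change -0.09); the cause was not tested. Leaving out single libraries changed the sign of the Glul to Glud1 difference (log2, -0.0489 to 0.0512), which passed in no setting, and of the Gpt log2 fold change (-0.0228 to 0.114; -0.00176 without enzalutamide library 5), which did not pass either. Counts of genes called, in all, in either direction and in the lists, stayed within 1.5 times the main value. Deviations of same-numbered libraries had correlations of -0.00849 to 0.0451, none above the 0.1 required of every pair, so the numbers were not taken as a pairing. Of the 10 libraries, 5 were closest to the one with their own number, where 2 would be with no pairing, a hint that the labels do not explain. Numbers 3 and 5 entered this tally from both groups, so its parts are not independent, and whether libraries were paired was not tested. The replicate block gave 5296 genes called and the same 6 enzymes. For the ratios, the block was an exact sign-flip test of 5 pairs, which cannot go below p = 0.0625 and says nothing about stability (log2 differences 0.35 for Got1 to Got2, 0.61 for Pycr1 to Aldh18a1 and 1.62 for Gpt2 to Got2, adjusted permutation p = 0.075 each). The lowest count of an enzyme in a library was 1648 (Pycr1, DMSO library 2); how the calls depend on depth was not tested, and Oat had too few counts to test.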
